A study of Mus musculus with 2 samples.

Results

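The messenger RNAs of 8 neuronal calcium-signalling genes were examined in a single-cell RNA sequencing sample of unsorted mouse brain. The genes were Camk2a, Camk2b, Nrgn, Hpca, Ncald, Calb1, Calb2 and Pvalb. They were chosen by symbol among the 31053 genes of the deposited matrix, and 8 of the 8 had at least 10 UMIs (unique molecular identifiers, each counting 1 captured RNA molecule) in the cells kept. A cell was kept with 500 or more detected genes when mitochondrial genes gave 10% of its UMIs or less. On GRCm38 (GENCODE M21) Camk2a lies at chr18:60925618-60988152, Camk2b at chr11:5969644-6066362, Nrgn at chr9:37544492-37552904, Hpca at chr4:129111570-129122036, Ncald at chr15:37366175-37792570, Calb1 at chr4:15881264-15908064, Calb2 at chr8:110137502-110168210 and Pvalb at chr15:78191114-78206400. Counts are per gene, so exons and isoforms are not told apart.

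When a neuron fires, calcium enters the cytosol, and proteins with EF-hand domains bind it. Calbindin (Calb1), calretinin (Calb2) and parvalbumin (Pvalb) act mainly as buffers, whereas hippocalcin (Hpca) and neurocalcin delta (Ncald) are sensors of 1 protein family that move to membranes when they bind calcium. Calmodulin passes the signal on to calcium/calmodulin-dependent protein kinase II (CaMKII), whose alpha and beta subunits are encoded by Camk2a and Camk2b and which is needed for long-term strengthening of synapses. Neurogranin (Nrgn) holds calmodulin near the postsynaptic membrane while calcium is low. The buffers are widely used by anatomists to tell neuron types apart.

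The total brain sample was unsorted and mixed STING-KO with wild type (WT) mice of both sexes, aged 2 and 24 months by its title. Another of its labels has 240 months in place of 24. The second sample of the series, of FACS-sorted brain cells, pooled STING-KO and WT male mice aged 3 and 12 months. STING is the adaptor that relays the sensing of DNA in the cytosol. Each sample is 1 matrix in which genotypes and ages are mixed, and its barcodes carry suffixes 1 to 4 that no source used here ties to an animal, age or genotype. Comparisons were therefore made between cell types within the total brain sample, with no test, because cells of 1 sample are not replicates. Ranges over the 4 suffixes show how values vary between parts of the sample. Intervals are at 95% and cover counting error only.

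The matrix held 14674 barcodes, of which 9367 cells (63.8%) with 33498788 UMIs were kept, at a median of 1692 UMIs per cell. Of 9359 distinct barcode sequences kept, 8 occurred under more than 1 suffix and 0 were shared with the cells kept in the sorted sample. There were 5301 neuron-like cells, 3579 cells of other named classes and 487 cells in other clusters left without a name. Among the 487 was a cluster of 211 cells in which all 12 neuron markers were raised. It stayed unnamed because oligodendrocyte markers were raised about as much, and it entered no comparison. All 12 neuron markers were detected in neuron-like cells, where they summed to 43122 CPM (UMIs per 1000000 UMIs of the group), against 3059 CPM in the other named classes. The neuron-like cells held 7 named types: forebrain excitatory-like (2268 cells), striatal projection-like (448), thalamic excitatory-like (100), cerebellar granule-like (923), Purkinje-like (19), cerebellar inhibitory interneuron-like (189) and Sst inhibitory-like (282 cells, led by Sst, Npy, Sox6 and Vip). Neuron-like clusters of 953, 91, 21 and 7 cells took no type name but stay among the neuron-like cells, so they are part of each comparison with other neuron-like cells. The cluster of 7 cells was led by Tyrobp and Ctss, which are not among the neuron markers used. The cluster of 953 cells, the largest, was raised in midbrain and hindbrain inhibitory markers by at least 80% of the rise of its best list. In it the 10 forebrain excitatory list genes summed to 992 CPM and the 8 thalamic excitatory list genes to 687 CPM. The 7 fast-spiking list genes summed to 863 CPM and the 7 midbrain and hindbrain inhibitory list genes to 334 CPM. This cluster is therefore not called excitatory or inhibitory. The Sst inhibitory-like cluster may be mixed, with both Sst and Vip among its leading genes. In it the 10 Sst list genes summed to 3077 CPM, the 7 fast-spiking list genes to 2548 CPM and the 10 Vip, Lamp5 and Cnr1 list genes to 2367 CPM. All of these lists hold Gad1 and Gad2, and the Sst and fast-spiking lists share Lhx6, so the sums cannot show a mixture. The same lists summed to 1384, 1511 and 2079 CPM in the cerebellar interneuron-like cluster. Under the stricter cell filter (1000 genes, 5% mitochondrial UMIs) no cluster took the Sst name and 1 took the Vip, Lamp5 and Cnr1 name. No cluster took the name of fast-spiking interneurons, so a Pvalb-rich cortical type was not separated here. Neither the 8 genes nor other calcium genes were used to make or name the clusters. Median depth ran from 790 UMIs in granule-like to 2556 UMIs in thalamic excitatory-like cells, and was 5975 UMIs in microglia-like and 4856 UMIs in endothelial-like cells.

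Each of the 8 genes was at least 2-fold higher in neuron-like cells than in the other named classes together, on the ratio of CPM plus 1. Over all 17985 genes with at least 10 UMIs, 27.4% passed the same fold, and 0 of the 8 genes were 2-fold lower, where 23.7% of all genes were. Camk2a differed most, with 842 CPM in neuron-like cells against 50.4 CPM in the other classes, a ratio of 16.7 (15.7 to 17.8). Hpca reached 88.3 CPM against 8.69 CPM, a ratio of 10.2 (8.64 to 12.0). Camk2b reached 619 CPM against 64.8 CPM (ratio 9.56, 9.01 to 10.1), and Nrgn 401 CPM against 62.1 CPM (ratio 6.45, 6.06 to 6.88). The buffers differed less: Calb1 had 119.9 CPM against 22.6 CPM, Calb2 42.3 CPM against 13.8 CPM, and Pvalb 60.9 CPM against 20.3 CPM. Ncald had the smallest ratio, 121 CPM against 54.6 CPM (ratio 2.21, 2.04 to 2.40). The difference passed 2-fold in all 4 suffixes for 7 of the genes and in 3 of 4 for Ncald. Under the stricter filter 5 of 8 genes passed, and Calb2, Pvalb and Ncald did not.

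**Figure D1:**
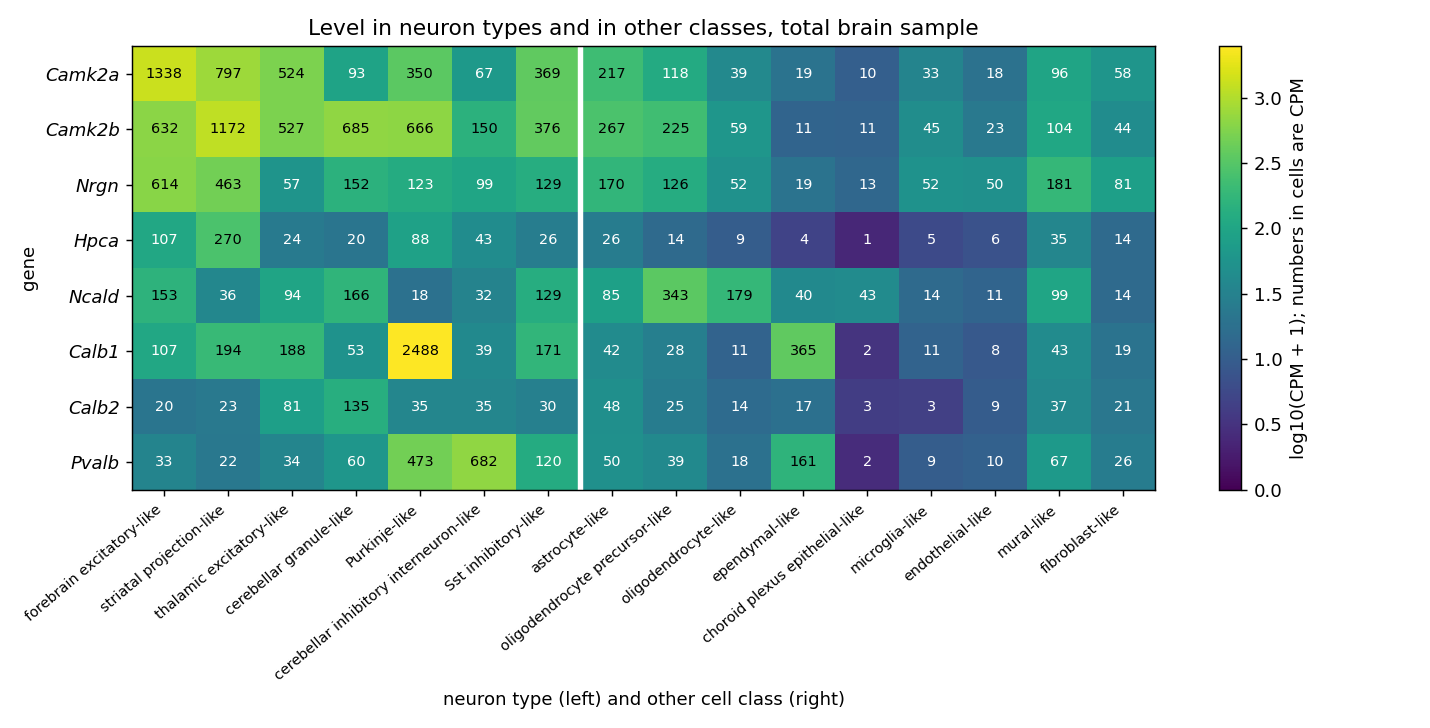
Level of each gene (rows) in 7 neuron types (left of the white line) and 9 other cell classes (right) of the total brain sample; colour is log10(CPM + 1) and the numbers are CPM. Camk2a peaks at 1338 CPM in forebrain excitatory-like cells, Calb1 at 2488 CPM in Purkinje-like cells, and Ncald reaches 343 CPM in oligodendrocyte precursor-like cells, against 166 CPM in its highest neuron type.

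Camk2a, the CaMKII alpha subunit gene (chromosome 18), was highest in the forebrain types. Forebrain excitatory-like cells held 1161, 1322, 1292 and 1423 CPM in suffixes 1 to 4, and 1338 CPM together (1307 to 1369). Striatal projection-like cells followed with 797 CPM (738 to 860), thalamic excitatory-like cells with 524 CPM (445 to 613), and Sst inhibitory-like and Purkinje-like cells with 369 CPM (321 to 422) and 350.4 CPM (214 to 541). The first 3 types did not overlap in their intervals, whereas the last 2 did. The thalamic level was 295 CPM under the stricter cell filter. Cerebellar granule-like cells had 92.9 CPM (74.5 to 114.5) and cerebellar interneuron-like cells 67.1 CPM (39.1 to 107.4), the lowest of the types. The highest type stood 19.95-fold (12.45 to 34.3) above the lowest. Set against all other neuron-like cells, forebrain excitatory-like cells were 3.80-fold higher (3.61 to 4.00) and passed 2-fold in each of the 4 suffixes. After each cell was thinned to 1000 UMIs, 69.2% of forebrain excitatory-like cells had a Camk2a UMI, against 3.85% of microglia-like and 3.75% of endothelial-like cells, which should lack the transcript. Unthinned shares were 81.8%, 10.98% and 9.50%, and 461 of the 2268 forebrain excitatory-like, 25 of 519 microglia-like and 81 of 747 endothelial-like cells were too shallow to be thinned. The thinned share of granule-like cells was 8.30% and that of cerebellar interneuron-like cells 4.67%, the second close to those background classes.

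Camk2b, the beta subunit gene, whose product also binds actin filaments, was spread far more evenly. Striatal projection-like cells led, with 1066, 1140, 1130 and 1242 CPM in suffixes 1 to 4 and 1172 CPM together (1099 to 1248). Every one of these suffix values lay above those of the other types. Cerebellar granule-like cells had 685 CPM (634 to 740.1), Purkinje-like cells 666 CPM (471 to 914), forebrain excitatory-like cells 632 CPM (610.4 to 653) and thalamic excitatory-like cells 527 CPM (448 to 617), and neighbours in this order overlapped in their intervals from granule-like to thalamic excitatory-like cells. Sst inhibitory-like cells had 376 CPM (327 to 429.6) and cerebellar interneuron-like cells 149.9 CPM (106 to 206). The range over types with at least 50 cells was 7.82-fold (5.65 to 11.1). Striatal projection-like cells were 2.05-fold higher (1.91 to 2.19) than other neuron-like cells, a call that 3 of 4 suffixes passed and that the looser cell filter (200 genes, 20% mitochondrial UMIs) ended, at a log2 ratio of 0.98.

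The balance of both subunits therefore differed by type. The ratio of Camk2a to Camk2b UMIs was 2.12 (2.03 to 2.21) in forebrain excitatory-like cells, with 1.96 to 2.23 over the suffixes. It was 0.994 (0.791 to 1.25) in thalamic excitatory-like and 0.981 (0.808 to 1.19) in Sst inhibitory-like cells. In striatal projection-like cells it was 0.680 (0.616 to 0.752), in Purkinje-like cells 0.526 (0.290 to 0.928) and in cerebellar interneuron-like cells 0.447 (0.237 to 0.812). The last 2 rest on 20 and 17 Camk2a UMIs and ran from 0.333 to 4 and from 0 to 0.667 over the suffixes. Thalamic excitatory-like cells ran from 0.556 to 1.13. The other named classes together had 0.778 (0.717 to 0.845), and the part of stray neuronal RNA in the low ratios was not tested. Granule-like cells were at the far end, at 0.136 (0.107 to 0.170) and 0.109 to 0.273 over the suffixes. Capture of the genes can differ, so the ratio is compared between types and not read as an amount of alpha against beta RNA.

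**Figure D2:**
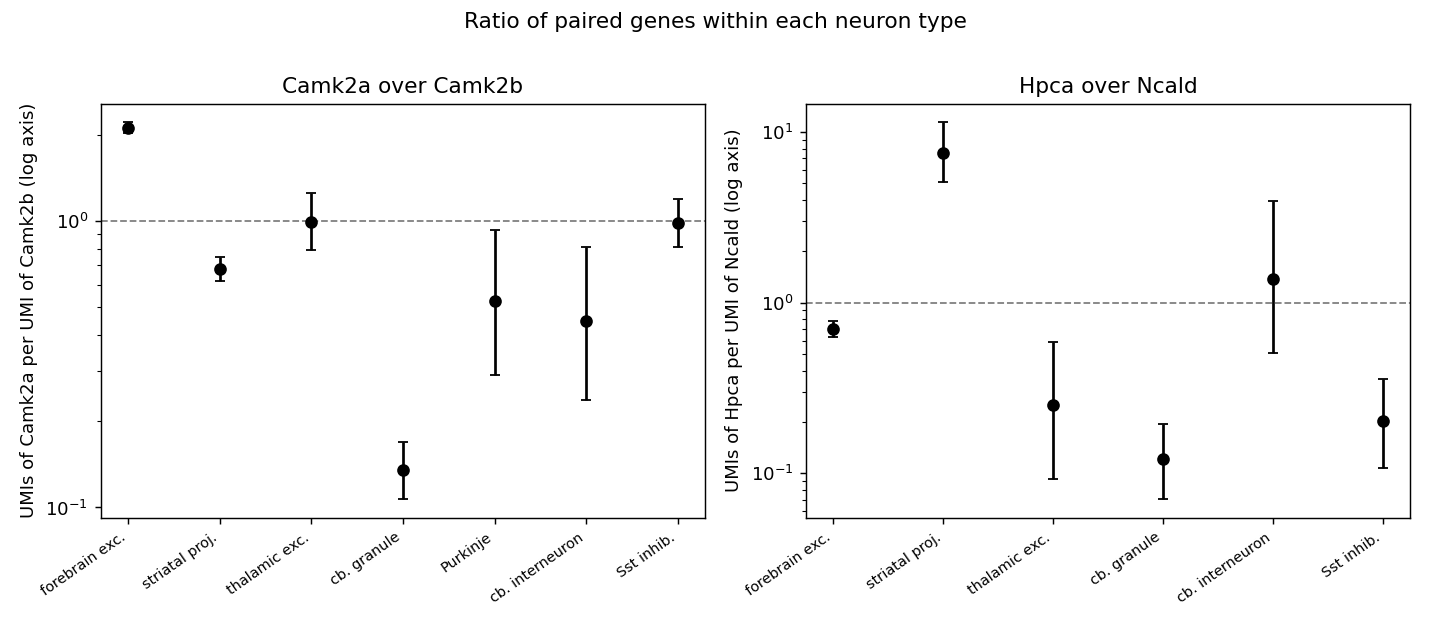
UMIs of Camk2a per UMI of Camk2b (left) and of Hpca per UMI of Ncald (right) in each neuron type, on log axes; points are ratios of summed UMIs, bars exact 95% intervals for counting error, and Purkinje-like cells are left out on the right, where they had 5 and 1 UMIs. The left ratio runs from 2.12 in forebrain excitatory-like to 0.136 in granule-like cells, and the right ratio peaks at 7.50 in striatal projection-like cells.

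Nrgn followed the forebrain pattern of Camk2a. It had 461, 464, 685 and 627 CPM in suffixes 1 to 4 of forebrain excitatory-like cells and 614 CPM together (594 to 636), and 463 CPM (418 to 512) in striatal projection-like cells. All other neuron types lay at or below 152 CPM, and thalamic excitatory-like cells were lowest at 57.1 CPM (33.3 to 91.5). Forebrain excitatory-like cells were thus 10.8-fold (6.71 to 18.5) above thalamic excitatory-like cells, which share their excitatory transmitter. Of thinned cells, 43.4% of forebrain excitatory-like and 30.2% of striatal projection-like cells had an Nrgn UMI. The share was 6.82% in thalamic excitatory-like cells, against 4.45% in microglia-like and 7.21% in endothelial-like cells, so thalamic detection was not above background. Against other neuron-like cells, Camk2a and Nrgn were the 2 of 8 genes at least 2-fold higher in forebrain excitatory-like cells, where 4.24% of 15581 genes were. Calb2 and Pvalb were at least 2-fold lower, where 8.93% of genes were. For Nrgn the call held in 3 of 4 suffixes.

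Within the forebrain excitatory-like type, 7 clusters differed further. The cluster led by Prox1 and C1ql2, genes of dentate granule neurons (74 cells), had 2149 CPM of Camk2a (1919 to 2399), 1471 CPM of Camk2b (1282 to 1681) and 271 CPM of Calb1 (194 to 369), each the highest of the 7. It had 0 UMIs of Calb2 in 147494, which allows up to 3 UMIs. The cluster led by Rorb (168 cells), a gene of cortical layer 4 neurons, had the highest Nrgn, 944 CPM (851 to 1044), and the highest ratio of Camk2a to Camk2b, 3.42. The cluster led by Fezf2 and Col5a1 (277 cells), of deep-layer character by its list, had the lowest Camk2a at 857 CPM (783 to 936), the highest Ncald at 257 CPM (218 to 302), and 31.1 CPM of Calb1 (18.4 to 49.2). The cluster led by Fibcd1 (192 cells), a gene of CA1 pyramidal neurons, had the highest Hpca, 208 CPM (173 to 247), beside 75.6 CPM of Ncald (55.6 to 100.6). The Hpca interval overlapped that of the Prox1 cluster, and the Ncald interval of the Fezf2 cluster overlapped those of the Prox1 and Nr4a2 clusters. The largest cluster (835 cells, led by Lars2 and Tshz2) had a median of 1042 UMIs per cell, and its Camk2a of 1237 CPM and Nrgn of 734 CPM lay within the span of the others.

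**Figure D3:**
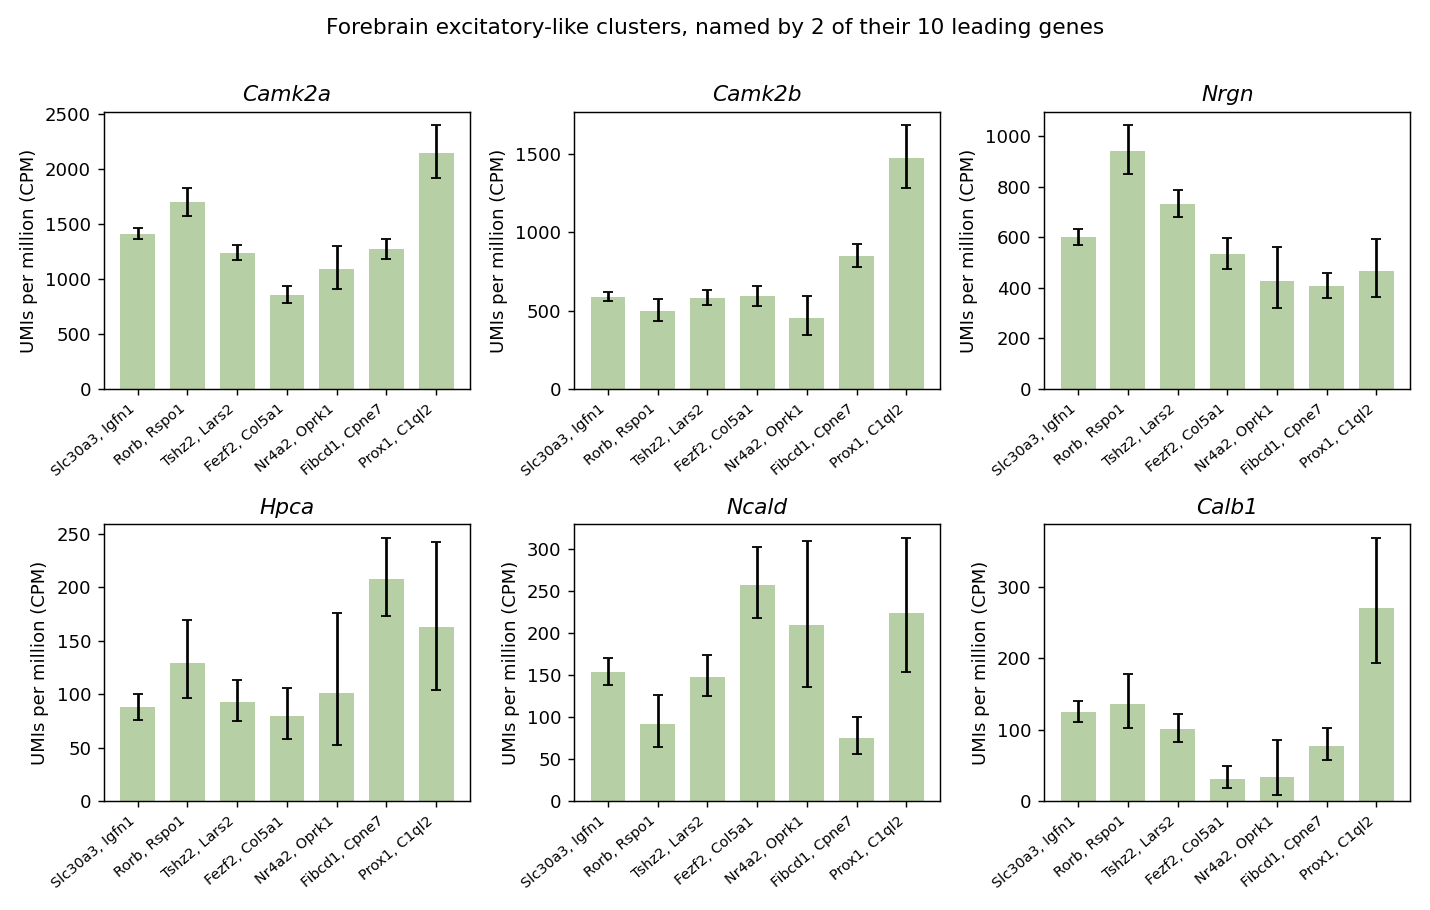
Level (CPM) of 6 genes in the 7 clusters of forebrain excitatory-like cells, each named by 2 of its leading genes; bars are summed UMIs as CPM and error bars exact 95% Poisson intervals. Camk2a, Camk2b and Calb1 are highest in the Prox1 cluster, Nrgn in the Rorb cluster, Hpca in the Fibcd1 cluster and Ncald in the Fezf2 cluster.

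The calcium sensors Hpca and Ncald, close relatives by sequence family, peaked in different types. Hpca was highest in striatal projection-like cells, at 185, 232, 329.6 and 244 CPM in suffixes 1 to 4 and 270.1 CPM together (236 to 308). Forebrain excitatory-like cells had 107 CPM (98.7 to 116), and their suffix values of 75.9 to 117 CPM did not reach those of the striatal type. All other types with at least 50 cells had between 20.1 CPM (granule-like) and 43.4 CPM (cerebellar interneuron-like), on 7 to 19 UMIs each. Ncald had 166 CPM (141 to 194) in granule-like, 153 CPM (143 to 164) in forebrain excitatory-like and 129 CPM (101 to 162) in Sst inhibitory-like cells, which overlapped. In striatal projection-like cells Ncald had 36.0 CPM (24.3 to 51.4), on 30 UMIs. The ratio of Hpca to Ncald UMIs was 7.50 (5.11 to 11.4) in striatal projection-like, 0.699 (0.627 to 0.779) in forebrain excitatory-like, 0.203 (0.108 to 0.356) in Sst inhibitory-like and 0.121 (0.0710 to 0.195) in granule-like cells. Against other neuron-like cells, striatal projection-like cells were 3.70-fold higher in Hpca (3.17 to 4.31) and at 0.281 of the Ncald level (0.189 to 0.403). Hpca and, except under the looser filter, Camk2b were the 2 of 8 genes at least 2-fold higher there, where 5.33% of genes were, and Ncald and Pvalb were the 2 at least 2-fold lower, where 18.5% of genes were. The Ncald locus overlaps 11 annotated genes, 6 of them on its own strand, and Hpca overlaps Tmem54 on the opposite strand, and Camk2a overlaps 2 genes on its own strand. Of these same-strand genes, only Gm15941, at Ncald, is among the genes of the matrix. Whether the counting used strand is not given by the labels, and the effect of the overlaps on the counts was not tested.

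Across 21 groups with at least 50 cells (neuron clusters and other classes), log2(CPM + 10) of Hpca and Nrgn correlated with Pearson r 0.892, and that of Pvalb and Hpca with r 0.270. These are descriptions, since the groups come from 1 sample and differ in depth. The promoters of Hpca and Nrgn, which were high together in the forebrain, and of Pvalb, which was not, are given for comparison from RefSeq on GRCm38.p6, 250 bases before to 50 after the start, on the minus strand. Capitals mark GGGCGG on either strand, a GC box letter pattern held by 35.7% of 32851 promoters of this length. RefSeq's table held promoters for 4 of the 8 genes.
Hpca chr4:129121698-129121997: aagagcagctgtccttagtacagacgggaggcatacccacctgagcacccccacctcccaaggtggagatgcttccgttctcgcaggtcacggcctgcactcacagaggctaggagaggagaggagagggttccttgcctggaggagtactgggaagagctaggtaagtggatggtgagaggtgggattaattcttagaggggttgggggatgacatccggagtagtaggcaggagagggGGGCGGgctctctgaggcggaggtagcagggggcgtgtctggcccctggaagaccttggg
Nrgn chr9:37552696-37552995: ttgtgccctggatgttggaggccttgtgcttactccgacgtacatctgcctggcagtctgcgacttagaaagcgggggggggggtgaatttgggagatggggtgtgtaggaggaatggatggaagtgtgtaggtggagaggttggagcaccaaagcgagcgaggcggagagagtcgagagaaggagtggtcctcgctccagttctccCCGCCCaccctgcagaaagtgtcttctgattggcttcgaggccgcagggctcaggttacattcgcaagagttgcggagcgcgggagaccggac
Pvalb chr15:78206351-78206650: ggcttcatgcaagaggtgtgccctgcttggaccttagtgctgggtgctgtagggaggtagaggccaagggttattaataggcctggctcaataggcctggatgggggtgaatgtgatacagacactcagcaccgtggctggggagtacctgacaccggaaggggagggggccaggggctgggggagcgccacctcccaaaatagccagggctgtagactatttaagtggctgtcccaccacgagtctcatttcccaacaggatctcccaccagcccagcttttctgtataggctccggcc
GGGCGG occurred 1 time each in the Hpca and Nrgn windows, 3 times in that of Camk2b and 0 times in that of Pvalb. TGACG on either strand, the core of the cyclic AMP response element, occurred in 0 of the 4 windows and in 20.8% of all promoters. CANNTG, the E-box, which reads the same on both strands, occurred 2 times in Hpca, 1 time in Nrgn and 0 times in Camk2b and Pvalb, and 72.3% of all promoters held it. Hpca and Pvalb have 3 and 2 starts in the table, and the most upstream was used.

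Among the buffers, Calb1 (chromosome 4) had its highest level in Purkinje-like cells, the output neurons of the cerebellar cortex, for which calbindin is a classical marker. The 19 cells held 2045, 1657, 3131 and 1530 CPM in suffixes 1 to 4 and 2488 CPM together (2095 to 2932), with a Calb1 UMI in 17 of 19 cells and up to 20 UMIs in a cell. This was 23.2-fold (19.3 to 27.6) above all other neuron-like cells. Striatal projection-like (194 CPM, 166 to 227), thalamic excitatory-like (188 CPM, 142 to 244) and Sst inhibitory-like cells (171 CPM, 138 to 208) came next and overlapped. The thalamic level was 69.2 CPM under the stricter filter. Forebrain excitatory-like cells had 107 CPM (98.8 to 117). By number they held the most Calb1 UMIs of the named types, 572, against 142 in the few Purkinje-like cells. Granule-like cells had 52.8 CPM (39.2 to 69.6) and cerebellar interneuron-like cells 39.4 CPM (18.9 to 72.5). Suffix values within the smaller types spread widely, from 86.2 to 422 CPM in Sst inhibitory-like cells.

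Pvalb (chromosome 15) marked the cerebellar inhibitory circuit. Cerebellar interneuron-like cells, led by Kit and Tfap2b as in molecular layer interneurons, had 133, 492, 655 and 849 CPM in suffixes 1 to 4 and 682 CPM together (584 to 792). Suffix 1 lay well below the others. A Pvalb UMI was found in 94 of 189 cells. Purkinje-like cells had 473 CPM (312 to 688) and overlapped with them, Sst inhibitory-like cells had 120.1 CPM (93.4 to 152), and the remaining types 21.6 to 60.2 CPM. The interneuron-like cells were 14.9-fold (12.4 to 17.8) above other neuron-like cells, and 3 of 4 suffixes passed 2-fold, suffix 1 having a log2 ratio of 0.98. Over the 6 types with at least 50 cells, which leaves out Purkinje-like cells, Pvalb ranged 31.6-fold (19.4 to 54.5). Thinned, 42.1% of cerebellar interneuron-like cells had a Pvalb UMI, against 1.82% of microglia-like and 0.901% of endothelial-like cells. The cerebellar interneuron-like cells with Pvalb rarely had Calb1 (3 of 94), whereas 10 of the 12 Purkinje-like cells with Pvalb also had Calb1. With or without Pvalb, Calb1 was found in 10 of 189 cerebellar interneuron-like and 17 of 19 Purkinje-like cells. The contrast is thus one of Calb1 between the types, whose median depths were 1101 and 2213 UMIs. In the same interneuron-like cells, 6 of 8 genes were at least 2-fold lower than in other neuron-like cells (27.4% of all genes were), and Pvalb was the 1 at least 2-fold higher (9.41% of genes). In Purkinje-like cells, Calb1 and Pvalb were at least 2-fold higher, where 10.2% of genes were. Camk2a, Nrgn and Ncald were at least 2-fold lower there, where 54.8% of genes were. The other Purkinje-like values rest on 38 UMIs or fewer per gene. In Sst inhibitory-like cells Pvalb was the 1 gene at least 2-fold higher (ratio 2.09, 1.60 to 2.68), where 5.2% of genes were, and 2 of 4 suffixes passed. In thalamic excitatory-like cells 0 of the 8 were higher, where 7.49% of genes were.

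Calb2 (chromosome 8) was the rarest transcript by UMIs in neuron-like cells, with 453. Cerebellar granule-like cells, known to contain calretinin, had 146, 77.3, 129 and 152 CPM in suffixes 1 to 4 and 135 CPM together (113 to 161), and each suffix value stood above the 20.1 CPM (16.5 to 24.3) of forebrain excitatory-like cells. Thalamic excitatory-like cells had 80.6 CPM (51.7 to 120.0), and every other type between 20.1 and 35.5 CPM. Granule-like cells were 4.06-fold (3.28 to 5.00) above other neuron-like cells in all, and Calb2 was the 1 of 8 genes at least 2-fold higher in them, where 8.09% of genes were. Calb1, Camk2a, Hpca and Nrgn were at least 2-fold lower, where 18.9% of genes were. Thinned, 10.5% of granule-like cells had a Calb2 UMI, against 0.810% of microglia-like and 0.901% of endothelial-like cells, although 646 of 923 granule-like cells were too shallow to enter. Under the stricter filter the granule-like level was 80.7 CPM.

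**Figure D4:**
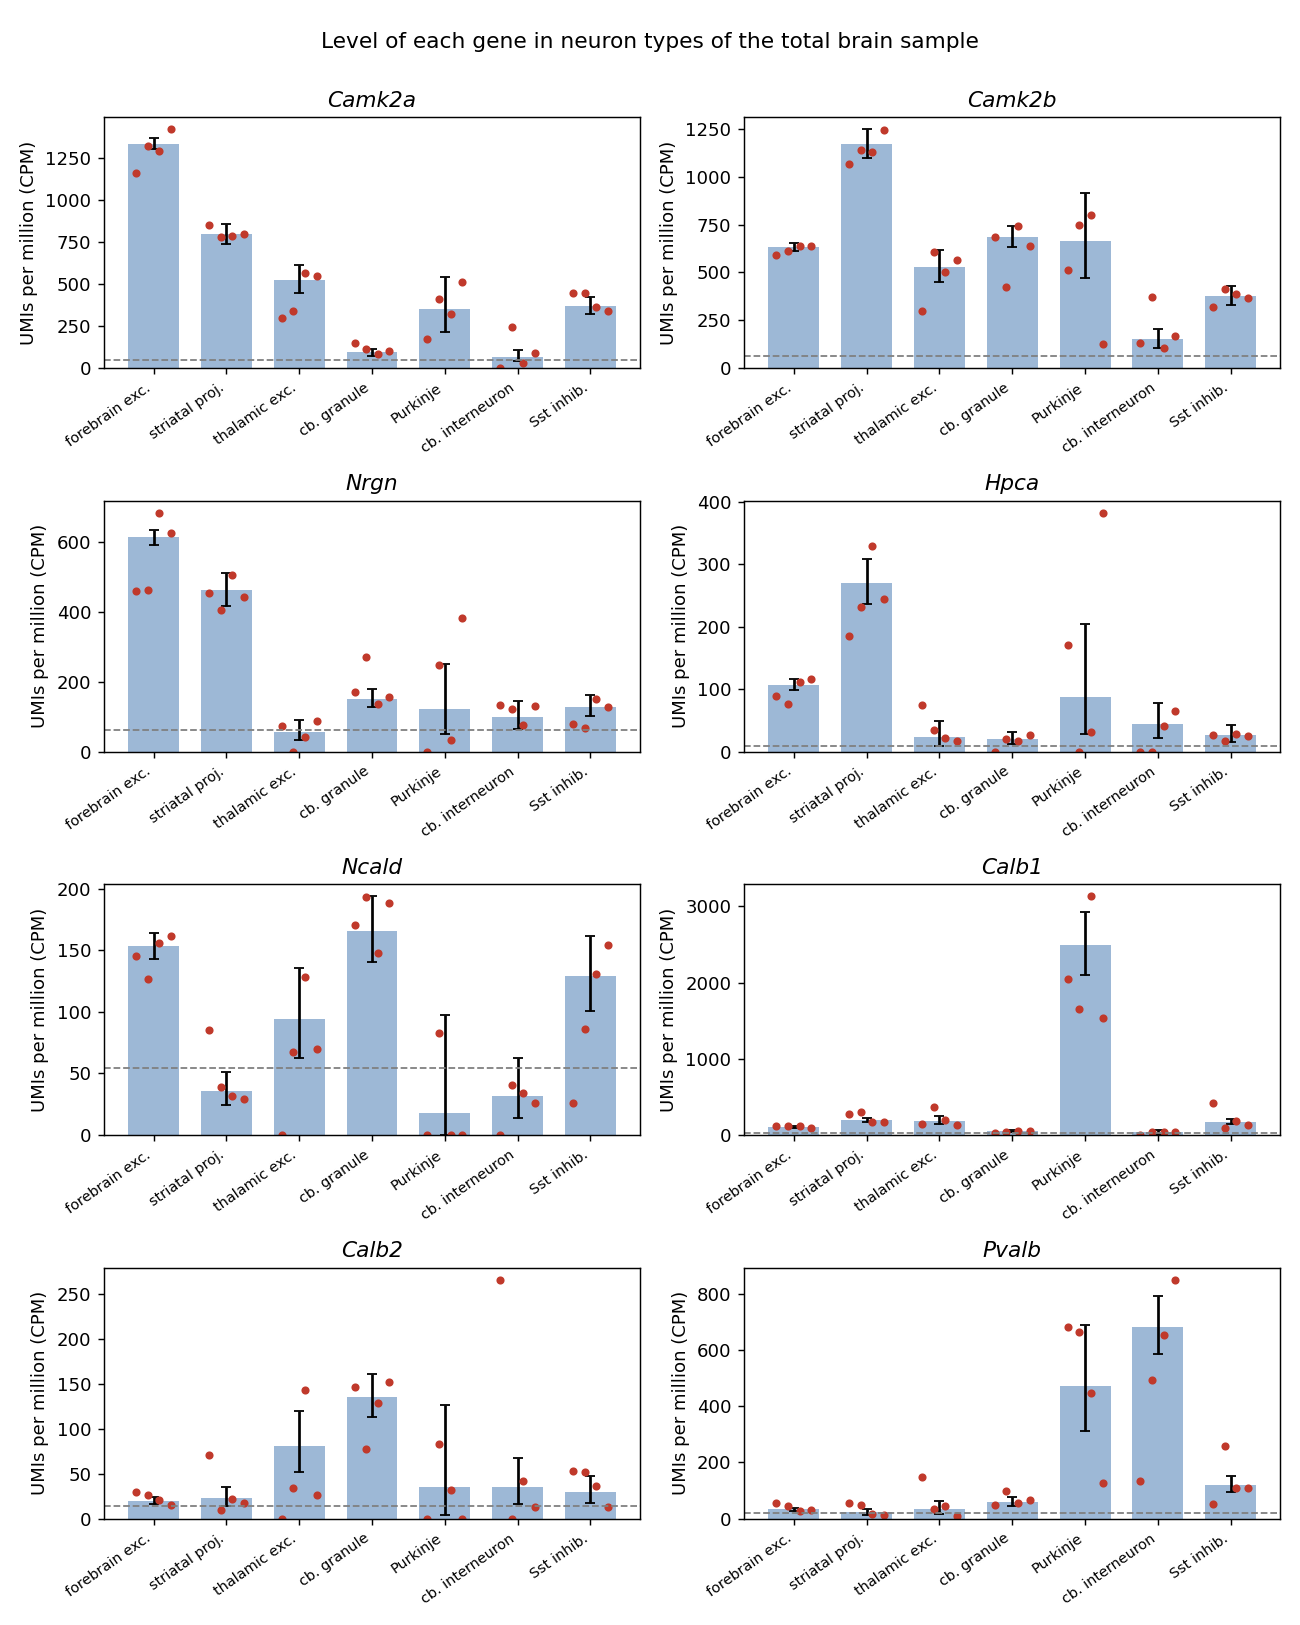
Level (CPM) of the 8 genes in 7 neuron types; bars are summed UMIs as CPM, black error bars exact 95% Poisson intervals, red points the 4 barcode suffixes, and dashed lines the level in all other named classes. Camk2a and Nrgn are highest in forebrain excitatory-like cells and next in striatal projection-like cells, Hpca and Camk2b peak in striatal projection-like cells, and Calb1 and Pvalb peak in Purkinje-like and cerebellar interneuron-like cells.

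For the inhibitory types together (Sst and cerebellar interneurons, 471 cells), Pvalb was the 1 of 8 genes at least 2-fold higher than in other neuron-like cells, at 292 CPM against 41.5 CPM (ratio 7.04, 5.98 to 8.28), where 4.52% of genes were. The call held in 3 of 4 suffixes, and in suffix 1 the log2 ratio was -0.03. Camk2a (277 CPM against 890 CPM), Nrgn (119.6 CPM against 424 CPM), Hpca (31.4 CPM against 93.0 CPM) and Camk2b (307 CPM against 645 CPM) were at least 2-fold lower, where 13.1% of genes were. The other neuron-like cells of this comparison include striatal projection-like and Purkinje-like cells, which are inhibitory too, and the unnamed clusters, so the ratios do not describe inhibitory neurons as a whole. The Camk2b call was borderline, at a log2 ratio of -1.07, and fell short of 2-fold in 5 of the alternatives run.

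Outside neurons, Ncald was high in the oligodendrocyte lineage. Oligodendrocyte precursor-like cells (153) held 356, 231, 405 and 293 CPM in suffixes 1 to 4 and 343 CPM together (285 to 409), and oligodendrocyte-like cells (626) 131, 183, 175 and 195 CPM and 179 CPM together (163 to 197). The precursor-like level was above that of every named neuron type as a whole. Its interval overlapped that of the Fezf2 cluster within the forebrain excitatory-like type. The oligodendrocyte-like level overlapped that of granule-like and forebrain excitatory-like neurons. Relative to the other named non-neuronal classes, Ncald was 6.92-fold (5.68 to 8.36) higher in precursor-like cells, where 27.8% of genes were at least 2-fold higher, and 4.74-fold (4.19 to 5.35) higher in oligodendrocyte-like cells, where 9.27% were. In precursor-like cells 4 of the 8 genes passed, Camk2b with a ratio of 3.63 (2.86 to 4.55), Camk2a with 2.40 (1.72 to 3.27) and Nrgn with 2.07 (1.504 to 2.79) besides Ncald. By suffix, Ncald and Camk2b passed in 4 of 4, Camk2a in 3 of 4 and Nrgn in 2 of 4. Neuron markers summed to 10864 CPM in the precursor-like cells and to 3187 CPM in the oligodendrocyte-like cells, against 43122 CPM in neuron-like cells. Camk2a had 38.5 CPM in the oligodendrocyte-like cells, below the 92.9 CPM of granule-like cells, although it had 205 CPM in the cells named so under the stricter filter. The sorted sample, which held few neurons, gave 156 CPM of Ncald (123 to 197) in 153 oligodendrocyte-like cells, where Calb1, Calb2, Pvalb, Camk2b and Hpca, 5 of the other 7 genes, had 0 UMIs in 466339, which allows up to 3 UMIs each. Calb1 was the 1 gene at least 2-fold lower in the oligodendrocyte-like cells of the total sample, at 11.1 CPM against 24.1 CPM, where 26.7% of genes were.

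Ependymal-like cells, the ciliated lining of the ventricles, held 365 CPM of Calb1 (315 to 420.5) on 193 UMIs and 161 CPM of Pvalb (129 to 199) on 85 UMIs, from 21 cells. Calb1 had 696, 389, 316 and 262 CPM in suffixes 1 to 4, and Pvalb 282, 167, 123 and 166 CPM. Each suffix value lay above the pooled level of the other named non-neuronal classes, 13.5 CPM for Calb1 and 16.5 CPM for Pvalb. The ratios were 27.1 (22.4 to 32.7) and 9.72 (7.57 to 12.4), and 15.4% of genes were at least 2-fold higher. Camk2a, Camk2b, Hpca and Nrgn were at least 2-fold lower, where 34.2% of genes were. All 11 cells with a Pvalb UMI also had Calb1, which was found in 13 cells. Both genes were concentrated in few and deep cells, with 48.7% of the Calb1 and 54.1% of the Pvalb UMIs in 3 cells, in a class with a median of 14804 UMIs. After the cells with the most UMIs in each suffix were left out, 10 ependymal-like cells remained, with 142 CPM of Calb1 and 0 of Pvalb. Purkinje markers summed to 11.4 CPM in ependymal-like cells, against 7954 CPM in Purkinje-like cells, and cerebellar interneuron markers to 77.6 CPM, against 4394 CPM in cerebellar interneuron-like cells. The 20 ependymal-like cells of the sorted sample had 127 CPM of Calb1 (63.5 to 227) on 11 UMIs and 208 CPM of Pvalb (123 to 329) on 18 UMIs, while Camk2a, Camk2b, Nrgn, Hpca and Calb2 had 0 UMIs there.

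Astrocyte-like cells (781) were at least 2-fold above the other named non-neuronal classes in 7 of the 8 genes, where 30.6% of all genes were. Of the 7, Calb1 and Nrgn passed in 3 of 4 suffixes and the others in 4 of 4. The astrocyte-like cells had 217 CPM of Camk2a (199 to 235), 267 CPM of Camk2b (247 to 288) and 170.4 CPM of Nrgn (155 to 187). Their summed neuron markers, 12434 CPM, were also well above those of microglia-like (1546 CPM) and endothelial-like cells (1007 CPM), and the part of neuronal RNA in these values was not tested. At a clustering resolution of 2, the astrocyte-like cells had 121 CPM of Camk2a, 114 CPM of Camk2b and 86.0 CPM of Nrgn, and under the stricter filter 79.4 CPM of Nrgn. In the sorted sample, 23 astrocyte-like cells with 31345 UMIs had 0 UMIs of Camk2a and of Camk2b, which allows up to 118 CPM each. Those sorted cells had 1 UMI of Nrgn (31.9 CPM, 0.808 to 178). Pvalb had 13 UMIs in them (415 CPM, 221 to 709), from 5 cells. Mural-like cells (156), the contractile cells of vessels, were at least 2-fold above the other named non-neuronal classes in Calb2, Pvalb, Hpca and Nrgn, 4 of 8 genes, where 13.5% of all genes were, and 0 of the 8 were 2-fold lower, where 22.8% were. Their Nrgn level was 181 CPM (141 to 230.0) on 68 UMIs, with 36.6 CPM under the stricter filter, 63.4 CPM under the looser filter and 56.4 CPM at resolution 2. Neuron markers summed to 5832 CPM in them, and the part of neuronal RNA was not tested here either. The 30 mural-like cells of the sorted sample had 0 UMIs of Calb2, Pvalb, Hpca and Nrgn in 36798, which allows up to 100 CPM each. In microglia-like cells of the total sample, Camk2a had 33.0 CPM (27.0 to 39.95) and Camk2b 45.3 CPM (38.2 to 53.3). In the sorted sample, 4426 microglia-like cells had 2.88 and 7.24 CPM. The 5307 barcodes of the total sample that were not kept, with a median of 755 UMIs, can include cells and do not measure free RNA alone. They carried 90.0 CPM of Camk2a, 82.8 CPM of Camk2b and 82.2 CPM of Nrgn. The microglia-like and endothelial-like levels of those 3 genes lay below these values. The astrocyte-like levels of the total sample lay above them, except Nrgn under the stricter filter.

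Of 43 other calcium genes listed with these members, 42 had at least 10 UMIs over neuron-like cells and the other named classes, and 32 were at least 2-fold higher and 2 at least 2-fold lower in neuron-like cells. Their median log2 ratio was 2.17, beside 0.21 over all genes tested. By list, 9 of 11 CaM kinases and regulators, 3 of 5 calcineurin genes, 8 of 9 other calcium sensors and 5 of 5 synaptic CaMKII partners were higher. Over neuron types with at least 50 cells, Camk2d, the CaMKII delta subunit gene, had 856 CPM in cerebellar interneuron-like and 818 CPM in granule-like cells but 80.4 CPM in striatal projection-like cells (ratio of highest to lowest 10.6, 8.06 to 14.2). Camkv, a kinase-like vesicle protein gene, was highest in striatal projection-like cells at 777 CPM and lowest in granule-like cells at 56.0 CPM. Camk1g had 126 CPM in cerebellar interneuron-like cells and 5.28 CPM in granule-like cells.

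Ppp3ca, the calcineurin catalytic subunit gene, had 2198 CPM in striatal projection-like cells and 521 CPM in cerebellar interneuron-like cells. Ppp3r1, its regulatory subunit gene, had 257 and 110.4 CPM in the same types, and the regulator Rcan2 was highest in thalamic excitatory-like cells at 104 CPM. Pcp4, which like neurogranin binds calmodulin through an IQ motif, had 779 CPM in striatal projection-like cells and 60.9 CPM in Sst inhibitory-like cells. Gap43, a calmodulin-binding protein gene of axons, ranged 2.62-fold. Of the sensor genes, Kcnip2, a subunit of A-type potassium channels, had 466 CPM in striatal projection-like and 11.8 CPM in cerebellar interneuron-like cells, Kcnip1 was highest in Sst inhibitory-like cells (118 CPM), and Vsnl1 had 134 CPM in granule-like and 26.4 CPM in striatal projection-like cells, in the same direction as Ncald. Cabp1 reached 1195 CPM in cerebellar interneuron-like cells against 43.7 CPM in thalamic excitatory-like cells, while Necab2 (222 CPM) and Caln1 (277 CPM) were highest in striatal projection-like cells. Among CaMKII substrates and partners, Grin2b, an NMDA receptor subunit gene, had 1272 CPM in striatal projection-like and 99.3 CPM in granule-like cells, and Gria1, an AMPA receptor subunit gene, 942 CPM in Sst inhibitory-like and 55.2 CPM in cerebellar interneuron-like cells. Shank3, a postsynaptic scaffold gene, ranged 3.14-fold.

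Over the same 21 groups, the genes whose levels most resembled each member were chosen among 10024 genes. Dlk2 (r 0.965) and Chn1 (0.960) were among the 3 closest to Camk2a, and Crtc1 (0.973), Unc79 (0.968) and Nedd4l (0.966) were closest to Camk2b. Cacnb1, a calcium channel subunit gene (0.920), Hcfc2 (0.917) and Robo3 (0.914) were closest to Nrgn. Dcaf13 (0.937), Spata2l (0.914) and Itpka (0.913), which encodes a calmodulin-regulated inositol trisphosphate kinase, were closest to Hpca. Hid1 (0.814), Shisa4 (0.810) and Kif3a (0.808) were closest to Ncald, the lowest values of the 8. For the buffers, the closest were Tbc1d32 (0.934), AI593442 (0.922) and Ppp4r4 (0.910) for Calb1, Patj (0.943), Grm4 (0.857), a glutamate receptor gene of granule cells, and Zfp219 (0.851) for Calb2, and Tmem151b (0.849), Akap7 (0.841) and Ppox (0.839) for Pvalb. Purkinje-like cells, at 19 cells, did not enter these correlations. Between members, Camk2a correlated with Camk2b at r 0.894, with Hpca at 0.875 and with Nrgn at 0.861, whereas Calb2 stayed within -0.04 and 0.42 of all others.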

How the data were processed

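Droplet single-cell RNA sequencing was run on dissociated brain. The series' design text gives n = 2, grouped, for each genotype among young and among aged mice. The authors deposited 1 matrix of raw UMI counts per sample, made with Cell Ranger (3.0.2 per the submitters' processing notes; 3.0.2 for sorted and 3.1.0 for total brain per the file headers) on mm10. The sample descriptions name 10x v3 chemistry, while the protocol names v2 and v3 depending on the run; the annotation release is not given by the labels or headers.

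Total brain cells were clustered alone with scanpy 1.11.5 and leidenalg 0.10.2 (2000 variable genes without members or other calcium genes, 30 principal components, 15 neighbours, resolution 1), and neuron-like cells again. A cluster took the name of a marker list when at least 50% of its markers, and at least 3, were 2-fold above the lower quartile of the other clusters with 10 CPM added. It stayed unnamed below 10 cells, at low depth with none of its own markers leading, where another list had more markers among its leading genes, or when another list was raised to at least 80% as much. As an exception, a cluster raised in both the neuron and the neuroblast list was named neuron-like. A cluster of 347 cells, with Igfbpl1 and Sox11 among its leading genes, was named this way. This naming rule was set after the clusters were seen. Members, gene lists and tests were chosen with earlier results of these data known.

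Levels are UMIs summed over a group as CPM, with exact Poisson intervals; ratios have exact binomial intervals and shares exact Clopper-Pearson intervals, at 95%. Ratios called at 2-fold use CPM plus 1, over genes with at least 10 UMIs. Cells were also thinned to 1000 UMIs. Scrublet called 8 of 9367 cells (0.0854%), too few to have worked, so doublets were kept. Calculations were tested on simulated data. Positions come from GENCODE M21 (GRCm38), which held 31011 of 31053 gene IDs. Other calcium genes named had at least 100 CPM in 1 neuron type and were the 3 of each list with the widest range over types. Results for a few genes that met this rule or the rule of likeness are not reported here.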

Additional observations from a re-analysis of the deposited data

How the results depend on the processing

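The alternatives were a looser (200 genes, 20% mitochondrial) and a stricter cell filter (1000 genes, 5%), removal of the 5% of cells with the most UMIs and of called doublets, equal weight per suffix, each suffix left out, resolutions 0.5 and 2, both samples clustered together, calcium genes allowed in clustering, CPM without mitochondrial and ribosomal protein genes, 10 CPM added to ratios, and no UMI minimum. Of 80 recomputed counts of genes at least 2-fold higher, 78 stayed within 1.5 times the value given. The UMI minimum enters only the share of all genes past 2-fold, so counts, ratios and levels could not change without it. That share moved by over 1.5 times in 3 of 5 comparisons, so the shares given depend on the minimum of 10 UMIs. Removal of called doublets took out 8 of 9367 cells, so it could change little. The totals given here include both alternatives. The stricter filter gave 5 of 8 genes higher in neuron-like cells, and the looser filter 1 higher in striatal projection-like cells (Camk2b at a log2 ratio of 0.98); the cause was not tested. With each suffix left out, the counts stayed at 8 for neuron-like, 2 for forebrain excitatory-like, 1 for granule-like, 2 for striatal projection-like and 1 for inhibitory cells. No ratio past 2-fold changed sign, among 640 recomputed. In neuron types, 46 of 832 recomputed levels left the counting interval of the value given and 4 of those on at least 30 UMIs moved by over 1.5 times. All 4 were under the stricter filter, which gave Calb1 at 69.2 CPM and Camk2a at 295 CPM in thalamic excitatory-like cells, and Calb2 at 80.7 CPM and Pvalb at 38.2 CPM in granule-like cells. In other classes 213 of 1408 levels left the interval, and 70 moved by over 1.5 times. Ncald kept to 289 to 367 CPM in oligodendrocyte precursor-like and 141 to 197 CPM in oligodendrocyte-like cells. Under the stricter filter no cluster was named ependymal-like. Depth limits Purkinje-like cells most, where 3 UMIs equal 52.6 CPM. No paired analysis was possible because each group is 1 sample.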
